A study of Homo sapiens with 45 samples.

Results

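The genes described here are 39 genes of the pre-mRNA splicing machinery and of the heterogeneous nuclear ribonucleoproteins (hnRNPs), taken by name from the 23045 gene rows of the deposited tables. They comprise 10 hnRNP genes, 9 genes of serine- and arginine-rich (SR) proteins, 10 genes of small nuclear ribonucleoprotein (snRNP) proteins, 6 genes of the SF3a and SF3b complexes, and the single genes U2AF1, U2AF2, PRPF8 and PTBP1. They were measured in 45 single H1 cells, which are a long-used line of human embryonic stem cells, taken at passage 40 and all grown on Matrigel in mTESR1 medium and detached with Accutase. The cells were either live (DAPI-) or fixed (DAPI+), and were prepared either by FRISCR, a protocol made to recover RNA from single fixed cells, or by lysis in Triton X-100, a detergent. This gave 15 live and 12 fixed cells by FRISCR and 11 live and 7 fixed cells by Triton lysis, in a test of principle of the protocol. Full-length cDNA libraries were made with Smart-Seq2 and Nextera XT.

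No label ties the cells of a group to separate cultures. Each group therefore stands as 1 sample, no test between groups was made, and the spread over cells is a description of that sample. A code in the titles divides the cells into 2 library sets, each with cells of all 4 groups (set 1 with 8, 6, 5 and 4 cells and set 2 with 7, 6, 6 and 3 cells, in the order live FRISCR, fixed FRISCR, live Triton, fixed Triton). What the code stands for is not given. The titles code the FRISCR cells as PLRC and the Triton cells as RLT, which does not name Triton. That the latter were lysed in Triton therefore rests on the source and sample group labels, and the titles leave it in doubt. The extraction text describes cortical tissue, which none of these cells is. Groups follow the sample group label.

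Total counts ranged from 3388417 to 6594043 per cell, no cell's values were identical to those of another, and the highest correlation of 2 cells was 0.640. All 10 pluripotency markers listed for the check (POU5F1, SOX2 and NANOG among them) were above 5 counts per 1000000 (CPM) in 3 groups, and 9 of 10 were in fixed Triton cells, where GDF3 was at 0. No mesoderm or endoderm marker of 8 reached 5 CPM, while 2 of 8 neural markers (FABP7, NES) and 3 of 7 fibroblast markers (COL1A1, COL1A2, THY1) did in every group. The summed level of the pluripotency markers had a median of 5673, 5628, 4907 and 1714 CPM in live FRISCR, fixed FRISCR, live Triton and fixed Triton cells, and that of the 7 fibroblast markers 688, 553, 589 and 246 CPM. That of the 8 neural markers was 52.3, 69.6, 48.7 and 0.268 CPM, with 170 CPM in the highest fixed Triton cell. The fixed Triton cells stood apart from the other 3 groups. Thinned to 1000000 counts, they had a median of 5062 detected genes, against 9057, 8929 and 9636 in live FRISCR, fixed FRISCR and live Triton cells. Of their counts a median of 26.3% lay in the row TVAS5, against 6.90% in live Triton cells, 0.826% in live FRISCR and 0.773% in fixed FRISCR cells, and rows named for ribosomal RNA took 9.00%, against 1.26% in live Triton cells. These values move with every comparison that involves fixed Triton cells, and their part in the results below was not tested.

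Splicing removes introns in a series of steps on the pre-mRNA. The U1 and U2 snRNPs mark the 5′ splice site and the branch point, with the help of U2AF, which reads the 3′ splice site, and of SF3a and SF3b, which are parts of the U2 snRNP. The Sm proteins form a ring around the small nuclear RNAs, SR proteins bind exons and promote the choice of nearby sites, and hnRNPs coat the nascent transcript and often oppose that choice. These are housekeeping genes, expressed in embryonic stem cells as in other dividing cells.

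The 6 shortest coding regions among the members all belong to Sm ring proteins, and length recurs in the comparisons below. The coding regions of 2 of them are printed for that reason, joined over their exons from the GENCODE 29 annotation and the GRCh38 genome (the deposited values were made on another build), with the start and stop codons in capitals. SNRPF lies at chr12:95859074-95866071 on the + strand and SNRPG at chr2:70281634-70293649 on the - strand, from start to stop codon. They span 261 and 231 bases and encode 86 and 76 residues, whereas the coding region of SF3B3 spans 3654 bases and that of PRPF8 7008 bases.
SNRPF: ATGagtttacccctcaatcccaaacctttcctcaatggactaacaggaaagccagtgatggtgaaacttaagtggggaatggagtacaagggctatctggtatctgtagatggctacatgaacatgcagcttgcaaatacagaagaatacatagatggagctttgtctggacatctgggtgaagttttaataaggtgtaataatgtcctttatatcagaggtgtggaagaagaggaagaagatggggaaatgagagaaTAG
SNRPG: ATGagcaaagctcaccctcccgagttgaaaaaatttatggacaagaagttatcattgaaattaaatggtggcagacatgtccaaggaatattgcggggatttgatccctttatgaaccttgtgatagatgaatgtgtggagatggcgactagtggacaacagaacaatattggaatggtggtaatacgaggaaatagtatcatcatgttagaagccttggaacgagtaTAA

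In live cells prepared by FRISCR, the members were abundant and were found in nearly every cell. All 38 members other than SF3A2 had a count in each of the 15 cells. Levels between genes are given in transcripts per 1000000 (TPM), which correct for length. HNRNPA1, which regulates splice site choice and mRNA export, was highest at 2713 ± 732 TPM (SD over 15 cells). SNRPG followed at 1558 ± 306 TPM, and then SNRPB (1131 ± 183 TPM), HNRNPC (1112 ± 204 TPM), a protein that packages nascent transcripts, and HNRNPK (1019 ± 195 TPM), which binds C-rich RNA. The last 3 of these lay within 1 SD of each other. U2AF2, the large U2AF subunit, stood at 24.8 ± 16.2 TPM, although U2AF1, the small subunit, stood at 612 ± 111 TPM. Over the members that averaged 20 CPM or more, the median TPM of a gene was 493 for the snRNP proteins, 424 for the hnRNPs, 233 for the SR proteins and 155 for SF3, against 40.8 for all 6463 genes that passed the same filter. SF3A2, a subunit of SF3a, did not pass it, with 13.9, 8.94, 11.3 and 4.25 CPM over the summed cells of the 4 groups in the order above, and the folds, their counts and their family medians below are over the other 38 members.

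As shares of a cell's counts, which do not correct for length, the hnRNP genes led at the median in every group but fixed Triton, where the snRNP genes did. The 10 genes together took 0.874%, 1.06% and 1.30% (lowest, median and highest cell) of the counts in live FRISCR cells and 0.867%, 0.983% and 1.16% in fixed FRISCR cells. In live Triton cells they took 0.655%, 0.887% and 1.02%, and in fixed Triton cells 0.169%, 0.248% and 0.459%, so that no fixed Triton cell reached the lowest cell of any other group. The SR genes had the same pattern, with a median of 0.437% in live FRISCR, 0.438% in fixed FRISCR and 0.396% in live Triton cells, and with 0.0571% to 0.174% in the fixed Triton cells. The snRNP genes did not share this order. Their median share was 0.342%, 0.408%, 0.310% and 0.418% in live FRISCR, fixed FRISCR, live Triton and fixed Triton cells, and the fixed Triton cells, from 0.245% to 0.632%, overlapped all other groups. The SF3 genes took a median of 0.192% and 0.133% in live and fixed FRISCR cells, and of 0.201% and 0.0170% in live and fixed Triton cells.

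**Figure D1:**
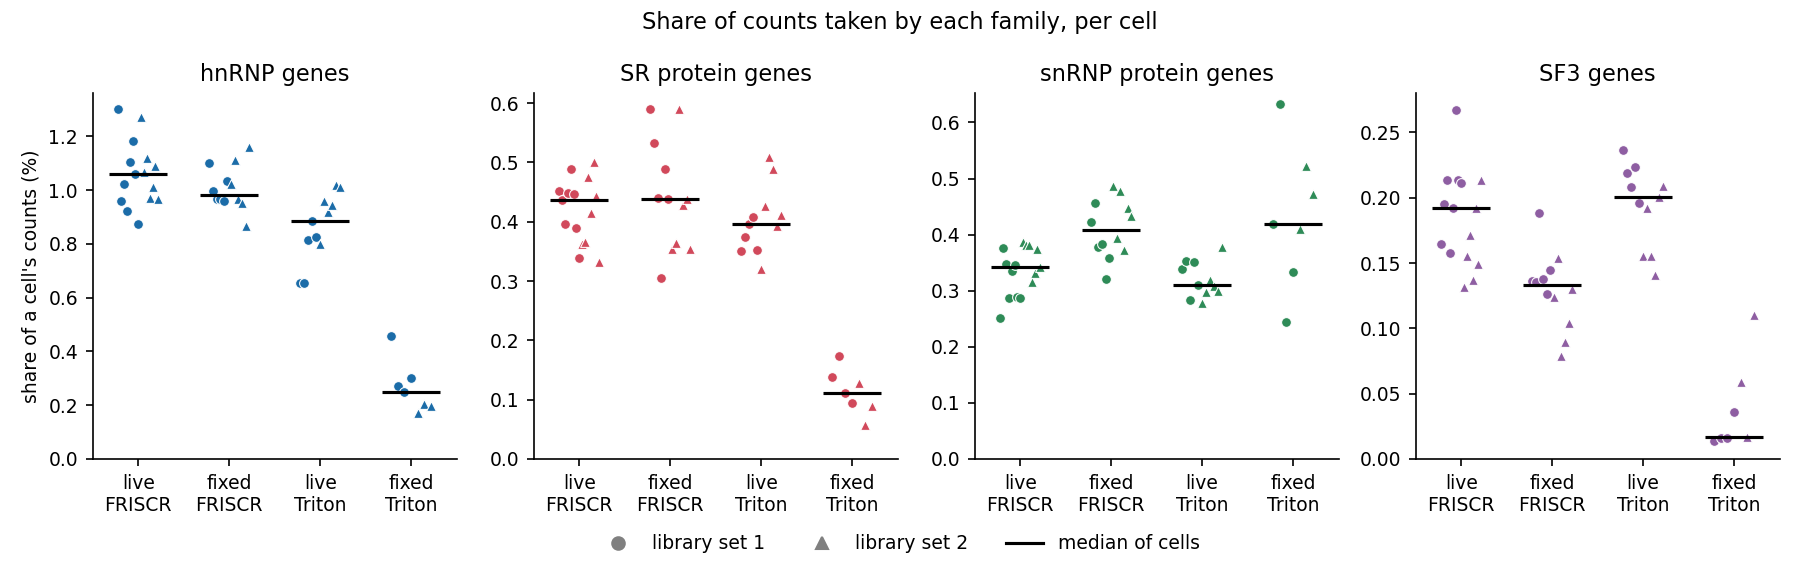
Share of a cell's counts (%, linear axis from 0) taken by the genes of each family, 1 point per cell, by group, with circles for library set 1, triangles for set 2 and a bar at the median of the cells. In fixed Triton cells the hnRNP, SR and SF3 shares are low (medians 0.248%, 0.111% and 0.0170%) while the snRNP share, median 0.418%, is not.

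Fixed and live cells prepared by FRISCR differed little, but the families did not move alike. The Sm ring genes were higher and the 5 SF3 genes compared were lower in fixed cells. These 5 do not include SF3B5, a small SF3b subunit outside the members, which was higher (below). The 7 Sm genes had a median log2 fold of 0.42 (fixed over live, CPM of the summed cells), where all genes compared had a median of -0.01. Relative to all genes they stood at 0.40 in set 1 and 0.37 in set 2, and each of the 7 lay above the all-gene median in both library sets. All 5 SF3 genes lay below it in both sets, with a median of -0.46, or -0.45 relative to all genes (-0.38 in set 1 and -0.55 in set 2). Relative to all genes, the 10 snRNP genes stood at 0.39 (0.38 and 0.36 in the sets), the SR genes at 0.15 (0.19 and -0.002) and the hnRNP genes at -0.02 (-0.09 and -0.04), so the SR and hnRNP medians were not apart from all genes in both sets. Folds from mean TPM in place of summed CPM put all genes at -0.13, the snRNP genes at 0.24 and the SF3 genes at -0.59.

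SNRPD2, an Sm ring protein, had 286, 379 and 476 CPM in live FRISCR cells (lowest, median and highest) and 452, 536 and 825 CPM in fixed ones. The groups overlapped only at their edges, and the summed level was 1.49-fold higher in fixed cells (1.46 to 1.51). Each such bracket is an exact 95% interval from the split of the summed counts, and covers counting error only. The log2 fold was 0.55 in set 1 and 0.58 in set 2. SNRPG had 204, 439 and 576 CPM in live and 366, 647 and 723 CPM in fixed cells, or 1.42-fold more. SNRPE, SNRPF, SNRPD1 and SNRPD3 were 1.34-, 1.37-, 1.29- and 1.30-fold higher, with log2 folds between 0.35 and 0.51 in each set. SNRPB was the Sm gene with the smallest difference, at 702 CPM in the summed live and 725 CPM in the summed fixed cells, a log2 fold of 0.05, which was -0.069 by mean TPM. The snRNP proteins outside the ring were not as uniform. SNRPA1, a protein of the U2 snRNP, and SNRPC, of the U1 snRNP, had log2 folds of 0.16 and 0.12 (SNRPC -0.011 by mean TPM), and SNRPA, also of the U1 snRNP, had -0.36 (-0.72 in set 1 and -0.07 in set 2). SNRPA had 61.2, 162 and 303 CPM in live and 55.7, 103 and 273 CPM in fixed cells, so that the ranges nearly coincided.

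SF3B3, a subunit of SF3b, was the one member past 2-fold in both sets. Its level was 211, 402 and 748 CPM in live FRISCR cells and 50.7, 205 and 340.3 CPM in fixed ones. The fixed cells were thus shifted down but overlapped the live cells, and the summed level was 2.14-fold lower (2.09 to 2.19), with log2 folds of -1.07 and -1.12 in the sets. Past 2-fold in both sets stood 1.92% of all genes as lower and 0.588% as higher, so 1 member lower and 0 higher of 38 is near that background. The log2 fold of SF3B3 ranged from -1.18 to -1.0 with any 1 cell left out, and it was no longer past 2-fold in both sets without replicate 1, 5, 9 or 10 of the fixed or replicate 7 or 13 of the live FRISCR cells. SF3A1, an SF3a subunit, had 69.2, 154 and 362 CPM in live and 30.1, 86.5 and 263 CPM in fixed cells, and was 1.67-fold lower (1.62 to 1.73). SF3B1, which contacts the branch point, and SF3B2 were 1.38- and 1.16-fold lower, and SF3A3 was nearest to no difference at a log2 fold of -0.07. No gene compared, member or other, separated the fixed from the live FRISCR cells without overlap (0% lower and 0% higher of 6463 genes).

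Single hnRNP and SR genes departed from their family medians in FRISCR cells. HNRNPM, which binds GU-rich RNA, had 199, 790.0 and 1073 CPM in live and 190.0, 478 and 804 CPM in fixed cells. It was 1.45-fold lower (1.42 to 1.47), with -0.38 and -0.68 on the log2 scale in the sets. HNRNPR followed with a log2 fold of -0.48, while HNRNPD, the AU-rich element binding protein AUF1, was highest of its family at 0.45 (0.33 and 0.65), from 79.6, 132 and 315 CPM in live to 128, 227 and 317 CPM in fixed cells. SRSF6, an SR protein, had 91.2, 325 and 572 CPM in live and 218, 422 and 669 CPM in fixed cells, and was 1.48-fold higher (1.45 to 1.51, log2 0.50 and 0.70 in the sets). The other 8 SR genes had log2 folds between -0.14 (SRSF7) and 0.18 (SRSF9). PTBP1, a repressor of neuronal exons, stood at -0.31, PRPF8, the central scaffold of the catalytic spliceosome, at -0.25, U2AF1 at 0.17 and U2AF2 at 0.24. All of these members overlapped between the groups.

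**Figure D2:**
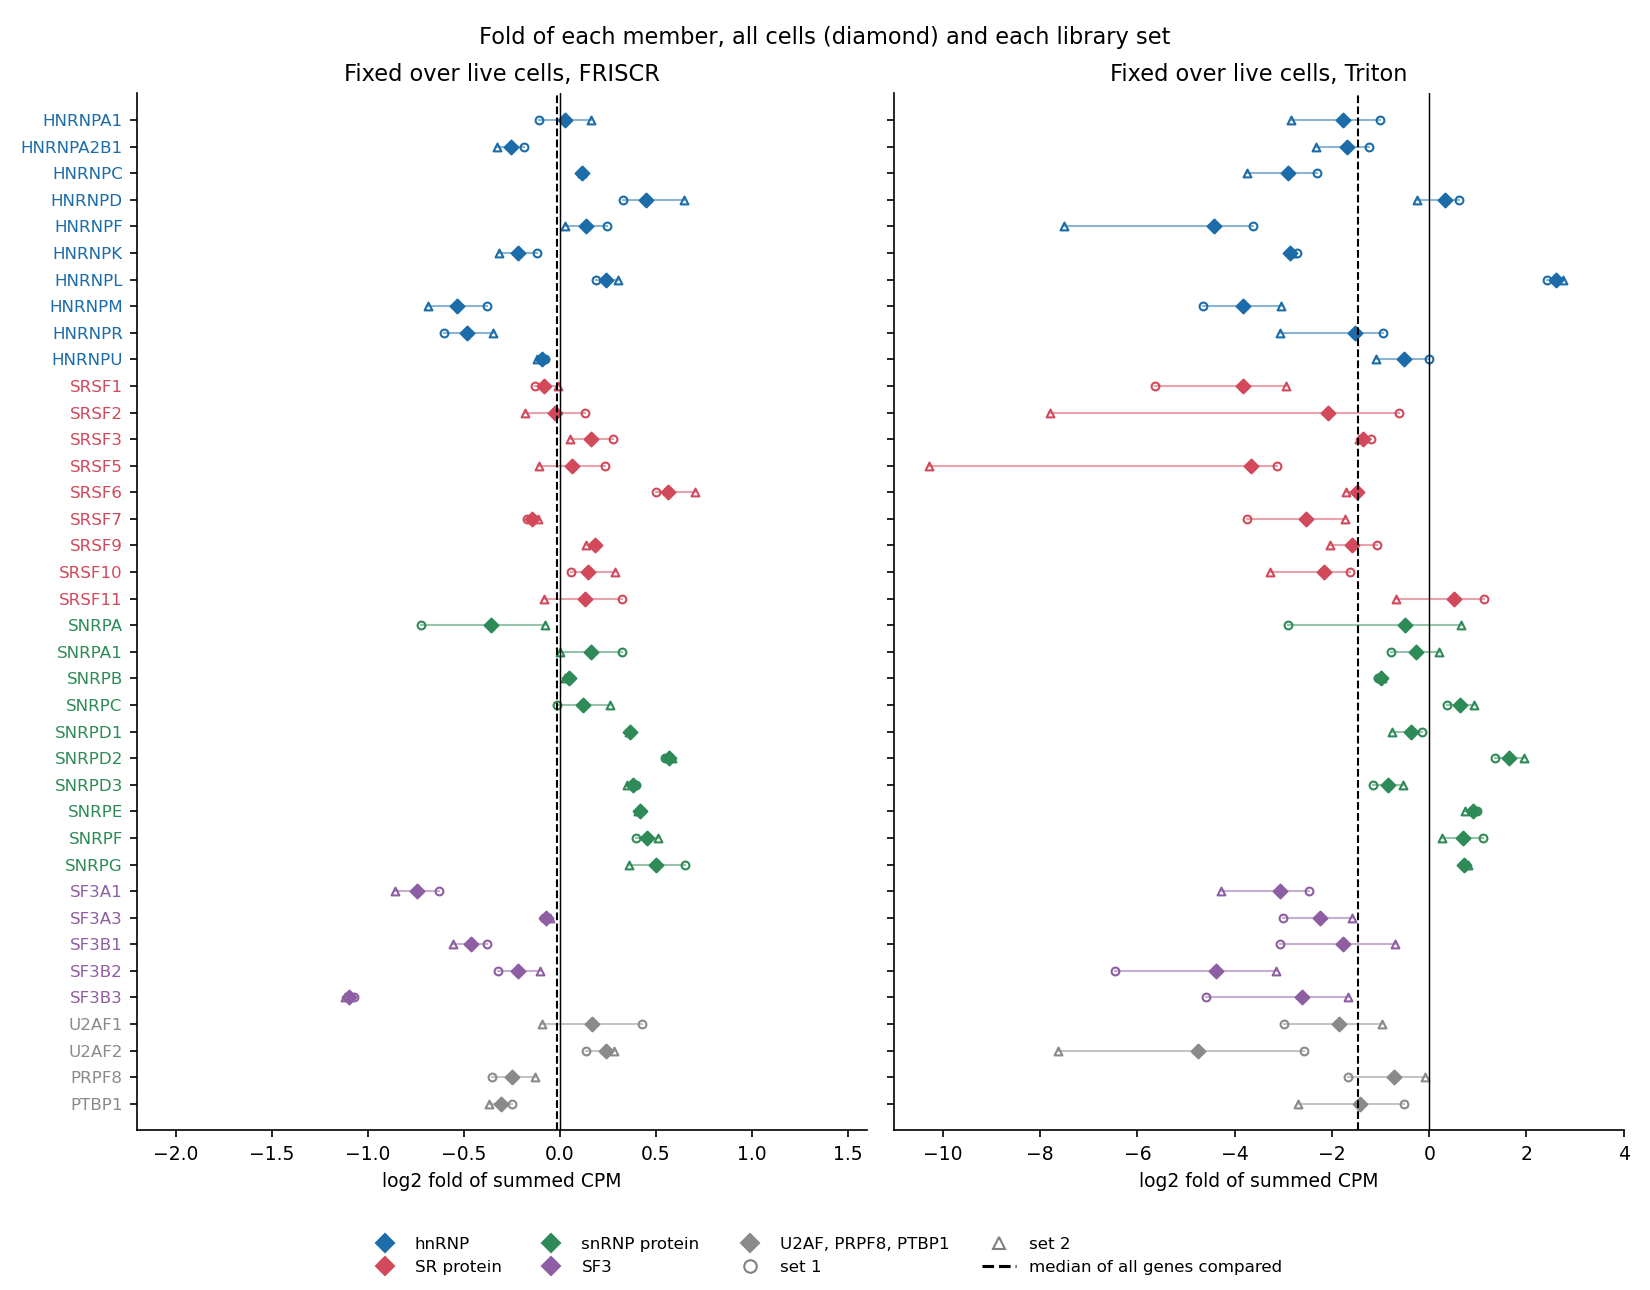
Log2 fold of the summed CPM of each of 38 members, fixed over live cells, by FRISCR (left) and Triton lysis (right, on a wider axis), with diamonds for all cells, circles for library set 1 and triangles for set 2. The dashed line is the median of all genes compared (-0.01 and -1.46); where a set had 0 counts, as U2AF2 in the fixed Triton cells of set 2, the marker stands at a floor of 3 counts.

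The lysis methods gave closely alike levels in live cells. The median log2 fold, FRISCR over Triton, was 0.09 for all genes and 0.09 for the 38 members, and no member was past 2-fold in both sets either way (0.789% of all genes were lower and 1.52% higher by FRISCR). The hnRNP genes stood 0.22 above all genes (0.44 in set 1 and 0.12 in set 2). Relative to all genes, the SF3 median stood at -0.21 (-0.16 and -0.22 in the sets). The SR median, at 0.02, and the snRNP median, at 0.01, differed in sign between the sets (0.10 and -0.06 for SR, -0.04 and 0.04 for snRNP). The raw snRNP median of 0.10 turned to -0.003 when TVAS5, the other most abundant rows and the ribosomal RNA rows were left out of the totals. PTBP1 differed most, with 236, 418 and 531 CPM in live FRISCR and 95.8, 199 and 420.4 CPM in live Triton cells. It was 1.78-fold higher by FRISCR (1.74 to 1.81; log2 1.13 and 0.68 in the sets), with overlapping cells. HNRNPK was 1.42-fold higher (1386, 1655 and 2654 against 675, 1321 and 1705 CPM), and U2AF2 1.39-fold, although its log2 fold was 1.49 in set 1 and 0.18 in set 2.

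Lower by FRISCR in live cells were SRSF6 (1.37-fold), SF3A3 (1.27-fold) and SNRPD2 (1.22-fold). SRSF6 had 239.7, 357 and 714 CPM in live Triton cells, so the live FRISCR cells, from 91.2 to 572 CPM, overlapped them widely. SF3A3 had 189, 409.9 and 619.7 CPM by FRISCR and 379, 489 and 766 CPM by Triton. For SNRPD2 the difference came from set 1 (log2 fold -0.60, against 0.02 in set 2), so it did not hold within both sets. Of the remaining family extremes, SRSF9 and SNRPF were higher by FRISCR (log2 0.46 and 0.32), as was SF3A1 (0.33), and HNRNPF was lower (-0.12).

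Fixed cells lysed in Triton gave another picture. The hnRNP, SR and SF3 medians were lower than in live Triton cells under every scaling tried, and the snRNP median was not, except by mean TPM. The median log2 fold, fixed over live, was -1.46 for all genes and -1.73, -2.08 and -2.61 for the hnRNP, SR and SF3 genes, but 0.19 for the 10 snRNP genes and 0.68 for the 7 Sm genes. By mean TPM the snRNP median was -0.41, with all genes at -1.86, and by edgeR's TMM or DESeq2's median-of-ratios scaling it was 1.10 or 1.31, with all genes at -0.55 or -0.34. The hnRNP, SR and SF3 medians were -0.81, -1.16 and -1.69 by TMM and -0.61, -0.96 and -1.49 by median-of-ratios. Relative to all genes, the snRNP median was 1.65 (2.11 in set 1 and 2.61 in set 2) and the Sm median 2.15 (2.69 and 2.41), and 9 of the 10 genes lay above all genes in both sets, SNRPA being the exception (log2 -2.91 in set 1 and 0.65 in set 2). For the hnRNP and SF3 genes a set differed in sign from the value over all cells, and for the SR genes both sets did. These values are relative to all genes, whose medians were -1.46 over all cells and -2.0 and -2.15 in the sets. The hnRNP median stood at -0.27 (0.89 and -0.68), the SR median at -0.61 (0.50 and 0.12) and the SF3 median at -1.15 (-1.06 and 0.49).

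Past 2-fold in both sets, 18 of 38 members were lower in fixed Triton cells, where 45.9% of all genes were, and 2 were higher (HNRNPL and SNRPD2), where 3.54% of all genes were. Both shares are near the background. The 18 were 6 hnRNP, 7 SR and 4 SF3 genes and U2AF2, and held no snRNP gene. By TMM 11 were lower and 5 higher, beside 32.1% and 9.62% of all genes, and by median-of-ratios 8 and 6, beside 30.0% and 11.6%. Without overlap of CPM over the cells, 12 of 38 members were lower, against 11.2% of all genes. They were HNRNPA1, HNRNPA2B1, HNRNPC, HNRNPF, HNRNPK, HNRNPM, SRSF1, SRSF5, SRSF6, SRSF10, SF3A3 and SF3B2. Overlap was not examined under the other scalings. All genes are not a like background here, since a gene at 0 in a live cell cannot be lower without overlap. In live Triton cells the members had a median of 377 CPM and a median coefficient of variation of 0.258, against 60.7 CPM and 0.614 for all genes. No member was higher in every fixed Triton cell than in every live one, against 1.02% of all genes.

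HNRNPL, which binds CA-rich RNA, was the member highest in fixed Triton cells relative to live ones. The 7 fixed cells had 996, 906, 156, 500.2, 388, 451 and 712 CPM, and the live Triton cells had 58.3, 92.7 and 187 CPM (lowest, median and highest). All but 1 fixed cell were above every live one, and the log2 fold was 2.42 in set 1 and 2.75 in set 2. In the FRISCR cells of both kinds HNRNPL ranged from 66.8 to 161 CPM. HNRNPD was the only other hnRNP gene with a positive log2 fold (0.33; 0.61 and -0.26 in the sets; -0.19 by mean TPM).

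The most abundant hnRNP genes were low in the fixed Triton cells. HNRNPA1 had 1401, 2031 and 3016 CPM in live Triton cells and 1146, 604, 906, 682, 374, 307 and 372 CPM in the 7 fixed ones. By CPM no fixed cell reached the live range, and the summed level was 3.42-fold lower (3.37 to 3.48). The log2 fold of HNRNPA1 was -1.78 by summed CPM, but -0.86 by TMM and -0.66 by median-of-ratios. HNRNPC had 1072, 1713 and 2261 CPM in live cells and 0.232, 524, 406, 256, 42.1, 90.3 and 283 CPM in fixed ones, a 7.47-fold difference (7.29 to 7.66). HNRNPK and HNRNPM were 7.29- and 14.3-fold lower, while HNRNPU, the nuclear scaffold protein SAF-A, did not keep 1 direction. Its log2 fold was -0.51, from no difference in set 1 to -1.09 in set 2, and it was 0.41 by TMM. HNRNPF, which binds G-rich RNA, had 298, 625 and 857 CPM in live cells, whereas the 7 fixed cells had 0, 51.2, 0, 129, 0.268, 0.218 and 9.35 CPM. Most of its remaining signal was in 1 cell, so it was 21.6-fold lower (20.1 to 23.2) with all cells and 52.2-fold lower without replicate 4. HNRNPR was 2.86-fold lower, or 4.43-fold without replicate 1. Its log2 fold over all cells was -1.52, but -0.60 by TMM and -0.40 by median-of-ratios.

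SRSF1, the prototype SR protein, had 535, 777 and 918 CPM in live Triton cells, against 0.930, 1.89, 25.4, 31.5, 8.05, 27.7 and 254 CPM in the fixed cells. No fixed cell reached the live range. The difference was 14.2-fold (13.5 to 15.0), and 47.3-fold without replicate 7. SRSF6, in contrast, had a fixed range of 81.2 to 233 CPM with no cell near 0, and was 2.81-fold lower (2.72 to 2.91). Its log2 fold was -1.49 by summed CPM, but -0.58 by TMM and -0.37 by median-of-ratios. SRSF11 was the one SR gene with a positive log2 fold (0.51), but the sets differed in sign (1.12 and -0.68), mean TPM gave -0.13, and its fixed cells ranged from 1.09 to 731 CPM. SRSF2, SRSF5, SRSF7 and SRSF10 were 4.21-, 12.6-, 5.76- and 4.46-fold lower. Without the single cell that held the largest part of their counts (replicates 1, 3, 5 and 2) they were 9.43-, 25.7-, 10.0- and 6.92-fold lower.

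Among the snRNP genes, SNRPD2 had 353, 425 and 639.8 CPM in live Triton cells and 1849, 1851, 519, 1149.8, 741, 2350.0 and 1334 CPM in fixed ones. All but 1 fixed cell exceeded every live cell, and the summed level was 3.13-fold higher (3.08 to 3.18; log2 1.36 and 1.94 in the sets). SNRPE had 255, 346 and 436 CPM in live cells and 568, 918, 233, 987, 317, 424 and 889.6 CPM in fixed ones, or 1.85-fold more (1.82 to 1.89). SNRPG had 873, 615, 449, 370.3, 823, 686 and 747 CPM in the fixed cells against 329.7 to 464 CPM in live ones, a 1.65-fold difference with the smallest spread over fixed Triton cells of any member (coefficient of variation 0.287). The opposite end of the family was SNRPB, at 2.00-fold lower (1.96 to 2.05), with 546, 654 and 815 CPM in live and 91.8, 351 and 559 CPM in fixed cells (log2 -0.086 by TMM and 0.12 by median-of-ratios). SNRPC and SNRPF were higher by summed CPM (log2 0.64 and 0.68), but hardly differed by mean TPM (0.029 and 0.044). SNRPG hardly differed by mean TPM either (0.075), whereas SNRPD2 and SNRPE remained higher (0.97 and 0.30). The fixed cells ranged from 0.232 to 968 CPM for SNRPC. SNRPD3, SNRPD1 and SNRPA1 had log2 folds of -0.86, -0.38 and -0.27 by summed CPM, but of 0.059, 0.53 and 0.65 by TMM, so their direction turned with the scaling, as did that of SNRPA (-0.49 and 0.42). SNRPD1 was 1.31-fold lower by summed CPM, or 2.25-fold without replicate 2.

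The SF3 genes had scattered counts in fixed Triton cells. SF3B2 had 141, 313 and 509 CPM in live cells and 0.232, 0, 18.9, 0.500, 7.24, 69.4 and 0 CPM in fixed ones. All fixed cells were below the live range, and it was 20.8-fold lower (18.9 to 23.0), or 77.0-fold without replicate 6. SF3B1 had a log2 fold of -1.77, but of -3.08 without replicate 7, which had 767 CPM while 1 other cell was at 0. SF3A1 and SF3B3 were 8.44- and 6.10-fold lower, or 22.4- and 10.1-fold without replicates 3 and 5. SF3A3 was 4.72-fold lower. U2AF2 had 34 counts in all 7 fixed cells together. Of the 7 cells 4 were at 0 and 1 cell, replicate 3, had 9.44 CPM, against 4.50, 30.4 and 79.7 CPM in live Triton cells. Its summed level was 0.0371 times that of live cells (0.0256 to 0.0521), or 26.9-fold lower. Without replicate 3 it had 2 counts and stood at 0.00247 times the live level (0.000299 to 0.00894). U2AF1 was 3.61-fold lower (6.73-fold without replicate 6), and PTBP1 2.70-fold. PTBP1 had a log2 fold of -1.43 by summed CPM, but of -0.52 by TMM and -0.31 by median-of-ratios. PRPF8 had a log2 fold of -0.73, of -1.76 without replicate 7, and of 0.19 by TMM.

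**Figure D3:**
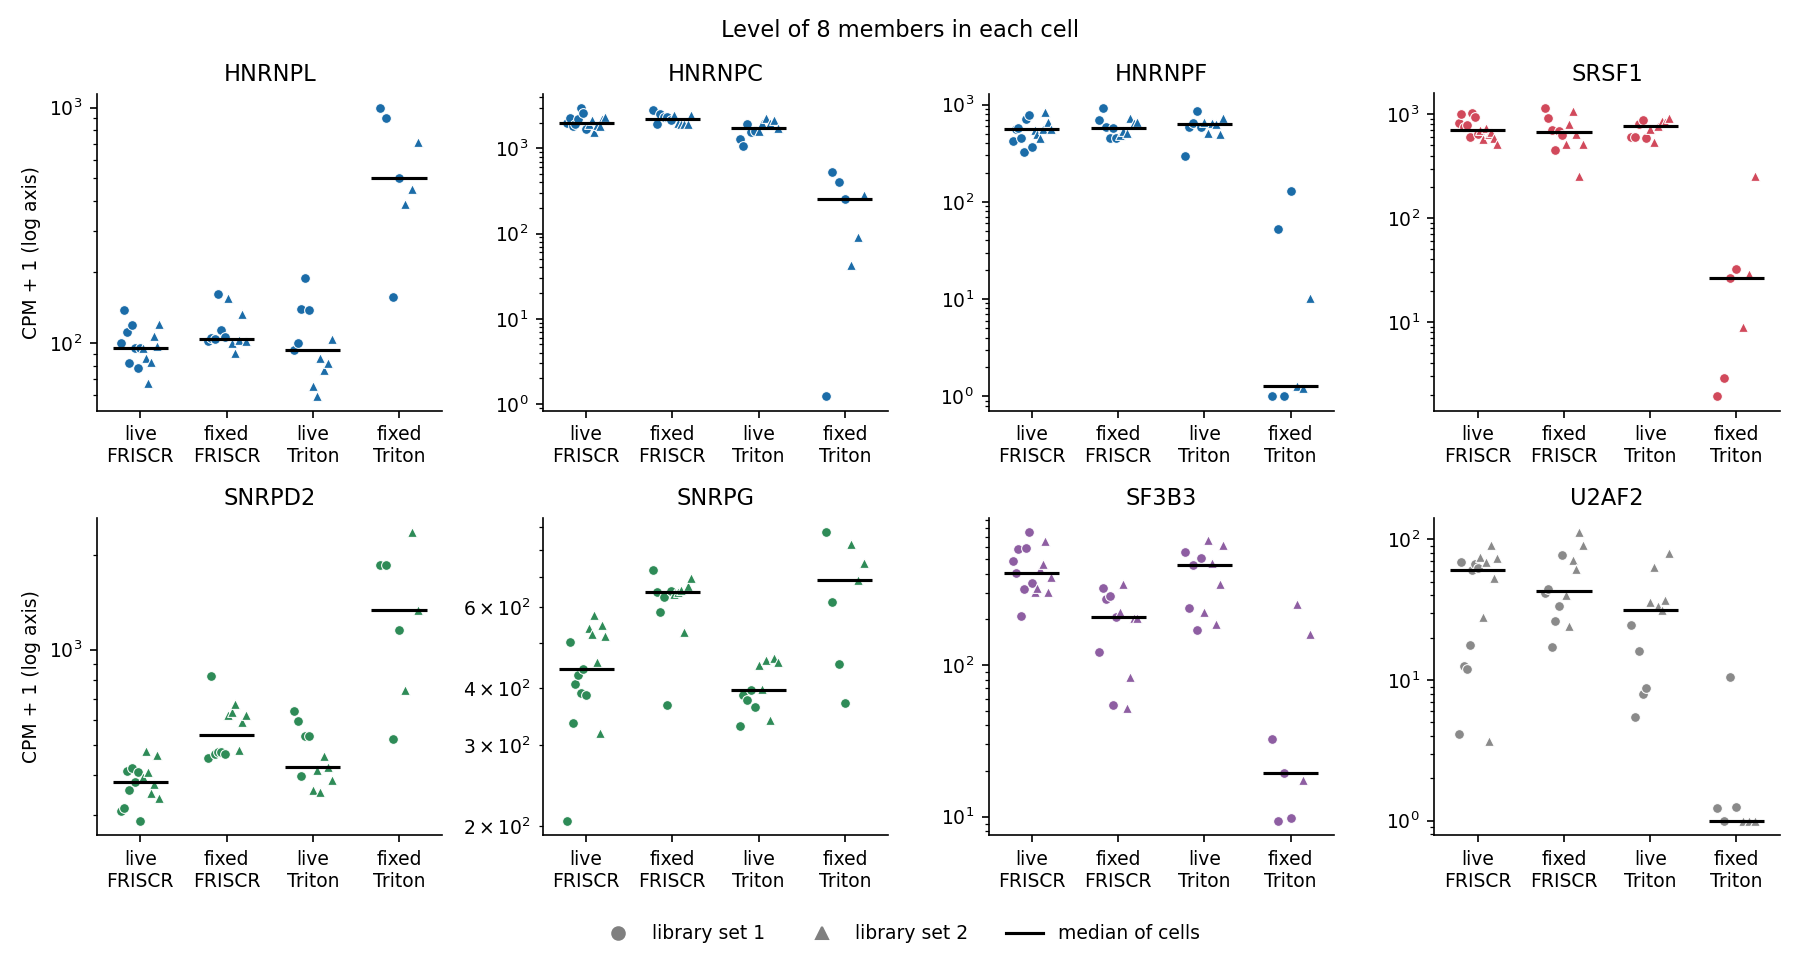
CPM + 1 on a log axis of 8 members in each of the 45 cells, by group, with circles for library set 1, triangles for set 2 and a bar at the median of the cells. HNRNPL and SNRPD2 are high in fixed Triton cells (medians 500.2 and 1334 CPM), and SNRPG there is near its level in fixed FRISCR cells. HNRNPC, HNRNPF, SRSF1, SF3B3 and U2AF2 are low in fixed Triton cells. All of these but SF3B3 have cells near 0, which for HNRNPF and U2AF2 are most of the cells (medians 0.268 and 0 CPM).

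Because totals differ in what else they hold, the families were also set against each other within each cell. These ratios are of summed counts without correction for length, so the most abundant genes weigh most. Examples are HNRNPA1, at 2119 CPM in the summed live Triton cells, and SNRPD2, at 1458 CPM in the summed fixed Triton cells. The ratio of snRNP to hnRNP counts was 0.193, 0.328 and 0.392 in live FRISCR, 0.334, 0.391 and 0.515 in fixed FRISCR and 0.294, 0.349 and 0.540 in live Triton cells (lowest, median and highest). In fixed Triton cells it was 0.911, 2.32 and 2.56, so that every fixed Triton cell lay above every cell of the other groups. Within the sets its median was 1.04 and 2.42 in fixed Triton cells, against 0.397 and 0.336 in live Triton cells. The ratio of SF3 to snRNP counts ran the other way, at medians of 0.572 and 0.312 in live and fixed FRISCR cells and of 0.630 and 0.0664 in live and fixed Triton cells. In FRISCR cells this ratio was lower in fixed than in live cells in both sets (0.633 to 0.377 in set 1 and 0.435 to 0.247 in set 2, at the median), with overlapping ranges over all cells (0.341 to 0.773 live and 0.165 to 0.499 fixed).

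**Figure D4:**
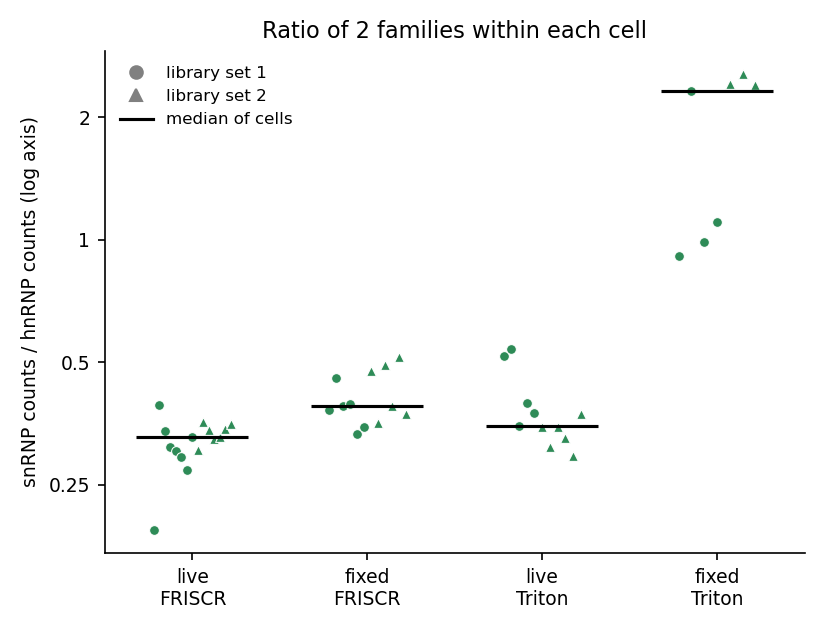
Ratio of snRNP to hnRNP counts within each cell (log axis) by group, with circles for library set 1, triangles for set 2 and a bar at the median. The 7 fixed Triton cells, from 0.911 to 2.56, all lie above the other 38 cells, which reach 0.540.

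Set against fixed Triton cells, fixed FRISCR cells showed the same genes from the other side. This comparison shares its cells with those above and is no separate evidence. Higher by FRISCR past 2-fold in both sets were 21 of 38 members, where 46.5% of all genes were, and lower were HNRNPL and SNRPD2, where 2.55% of all genes were. SNRPD2 was lower by 2.57-fold (2.53 to 2.61), and without replicate 6 of the fixed Triton cells only 1 member was past 2-fold in both sets. HNRNPL was 5.34-fold lower (5.18 to 5.49). U2AF2 was 44.3-fold higher (31.6 to 64.1; 665-fold, 184 to 5497, on 2 counts without replicate 3), HNRNPF 21.7-fold (20.3 to 23.3; 52.6-fold without replicate 4) and SF3B2 15.5-fold (14.1 to 17.2; 57.4-fold without replicate 6). SNRPC was 1.36-fold lower by FRISCR, SNRPE and SNRPG 1.14- and 1.06-fold lower, and SNRPF 1.06-fold higher. The first 3 were higher by mean TPM (log2 0.046, 0.26 and 0.44), and SNRPF was lower by TMM (-0.90). Relative to the all-gene median log2 fold of 1.48, the snRNP genes stood at -1.30 (-1.75 in set 1 and -2.09 in set 2), with 9 of 10 below it in both sets, whereas the raw snRNP median of 0.19 was -0.81 by TMM and -0.93 by median-of-ratios. The hnRNP, SR and SF3 genes stood 0.51, 0.75 and 0.34 above all genes. The 2 sets differed in sign from each other for each of them (hnRNP -0.38 and 0.73, SR -0.27 and 0.53, SF3 0.59 and -0.92). The SF3 value ranged from -0.046 to 0.84 with any 1 cell left out, and was negative without fixed Triton replicate 2 only.

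Detection followed the same division. Thinned to 1000000 counts, cells of the other 3 groups had 38 or 39 of the 39 members, and fixed Triton cells had 28, 35 and 37 (lowest, median and highest; 32, 36 and 38 without thinning). At 0 in some, without thinning, of the fixed Triton cells were U2AF2 (4 of 7 cells), SRSF5 (3 cells), and HNRNPF, SRSF7, SRSF9, SNRPA and SF3B2 (2 cells each), and SNRPD3, SF3A1, SF3A3, SF3B1 and PRPF8 (1 cell each). Of the 38 members that passed the filter, 26 had a count in every fixed Triton cell, against 1698 of the 6463 genes compared. The median gene compared had a count in 57.1% of these cells. A count of 0 does not show that a cell lacks the mRNA. The spread between cells was also larger. The median coefficient of variation of the members' CPM was 0.300, 0.294 and 0.258 in live FRISCR, fixed FRISCR and live Triton cells and 1.01 in fixed Triton cells, against 0.692, 0.746, 0.614 and 1.73 for all genes compared. Within the fixed Triton cells the snRNP genes varied least at the median (0.620), then the hnRNP (0.802), SR (1.21) and SF3 genes (1.63). Median levels there fell in the same order, at 299, 211, 111 and 67.8 CPM. In live FRISCR cells the coefficients were close together, from 0.253 for the snRNP and 0.254 for the hnRNP genes to 0.346 for SF3. SRSF9 was the most variable member there that passed the filter (0.767). The members were also more abundant than all genes (median 382 against 64.0 CPM in live FRISCR cells), and the part of level in the spread was not tested.

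Transcript length differed between the families. The deposited counts and TPM together imply the length the authors used, here relative to the median gene. The median was 0.40 for the snRNP genes (SNRPG 0.175, SNRPD2 0.241, SNRPF 0.255), 0.890 for SR, 0.957 for hnRNP and 1.57 for SF3 genes (SF3B3 3.62). Of the 10 snRNP genes 8 were in the shortest of 5 length bins that divide all genes evenly and the others in the next bin. Across the 38 members, Spearman's rho between length and log2 fold was -0.60 in FRISCR and -0.47 in Triton cells for fixed over live, and -0.28 and -0.19 across 6462 genes. It was 0.09 for FRISCR over Triton in live cells. The points share their cells and libraries, and genes are not independent replicates. In the shortest bin, the median of all genes was 0.23 in FRISCR and -0.03 in Triton cells for fixed over live, against 0.02, -0.11, -0.18 and -0.14 in the next 4 bins by FRISCR and -1.98, -2.11, -1.89 and -1.42 by Triton, so the folds did not go down steadily with length in Triton cells. Set against genes of their own bin, a comparison chosen after seeing the data, the snRNP median was 0.17 in FRISCR and 0.73 in Triton cells, and the SF3 median in FRISCR cells was -0.28. The hnRNP and SR medians in Triton cells, -1.73 and -2.08, were below the median of all genes, -1.46. They were not below that of bin 3 (-2.11), which holds the median hnRNP and SR lengths. Within families rho was -0.64 and -0.49 for the 10 snRNP genes, -0.38 and -0.12 for the 10 hnRNP genes and -0.03 and 0.10 for the 9 SR genes. U2AF1, at a length of 0.316 within the range of the snRNP genes, was 3.61-fold lower in fixed Triton cells, and HNRNPL, at 0.665, was the highest member. What part length has in the family differences was not tested.

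**Figure D5:**
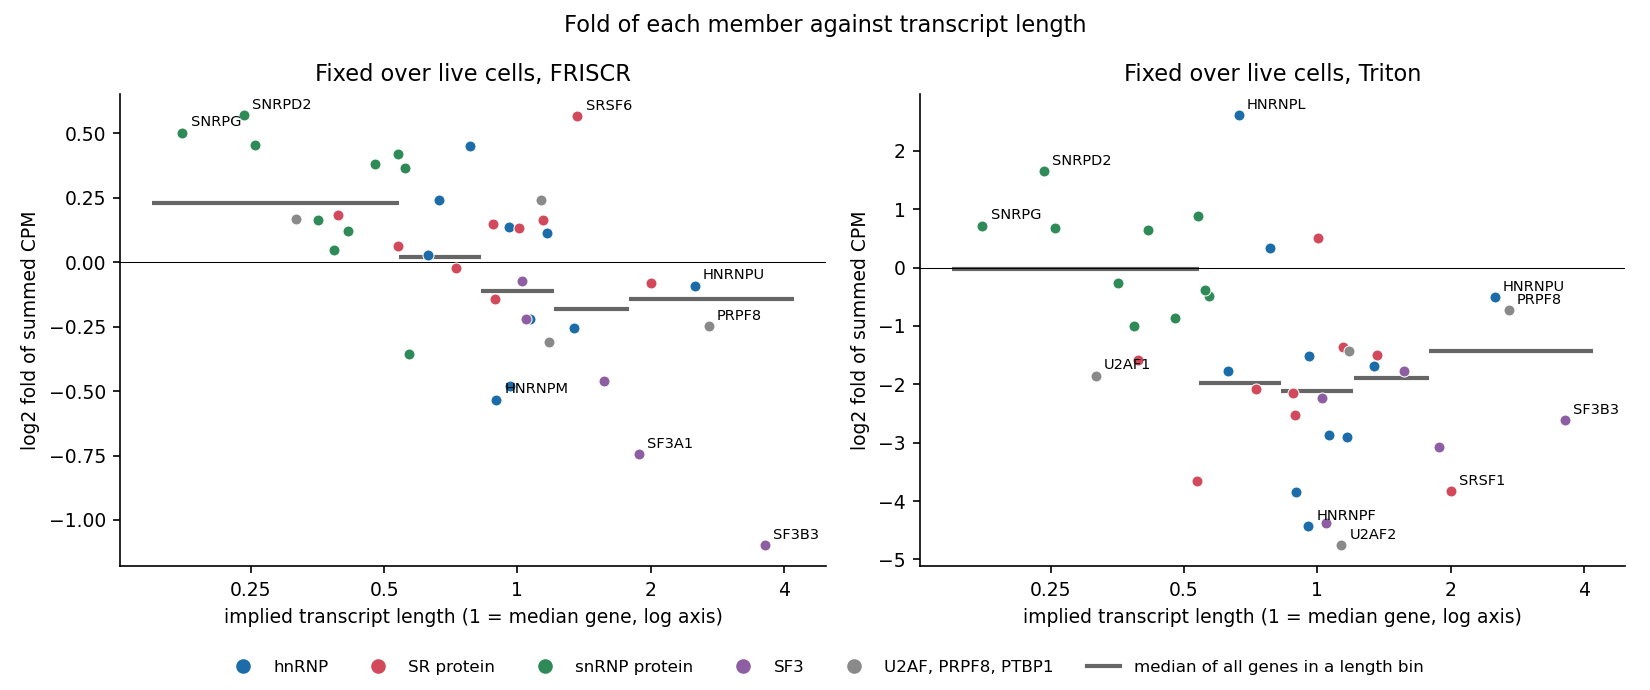
Log2 fold of the summed CPM, fixed over live cells, of each of 38 members against the transcript length implied by the deposited values (log axis, 1 is the median gene), by FRISCR (left) and Triton lysis (right). Bars mark the median of all genes in each of 5 length bins, drawn within the axis range. The shortest bin lies at 0.23 and -0.03, and its snRNP genes lie on both sides of that level, more of them above than below. SF3B3, at a length of 3.62, lies far below 0 in both panels.

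Other genes of the splicing machinery did not share one direction. Of 95 listed genes 93 were found and 83 passed the filter, and their median log2 folds followed all genes, at -0.05 in FRISCR and -1.55 in Triton cells for fixed over live, and at 0.10 and 1.49 for FRISCR over Triton in live and fixed cells. Past 2-fold in both sets, fixed over live, 1 was lower and 0 higher by FRISCR, and 39 were lower and 1 higher by Triton (47.0% and 1.20% of the 83, beside 45.9% and 3.54% of all genes). For FRISCR over Triton, 1 was higher in live cells and 39 in fixed cells (47.0%, beside 46.5% of all genes), and 0 were lower in either. In FRISCR cells SF3B5, a small SF3b subunit, was 1.77-fold higher in fixed cells, TXNL4A of the U5 snRNP 1.59-fold and CWC15 1.57-fold. SRSF4 was 2.41-fold lower, and the RNA helicases DHX38 and DDX23 were 2.32- and 2.26-fold lower. In Triton cells TRA2A, TXNL4A and LSM3, a subunit of the Lsm ring on U6, were 2.53-, 2.45- and 2.43-fold higher in fixed cells, but their set 2 log2 folds were 0.71, 0.17 and 0.14. The 1 gene past 2-fold in both sets was HNRNPH1, at 2.38-fold higher. HNRNPH2, DHX16 and XAB2, the lowest, had 3, 1 and 0 counts in all 7 fixed Triton cells, against 171, 50.3 and 47.9 CPM in live ones. HNRNPA0, PCBP2 and KHSRP were 2.47-, 2.00- and 1.90-fold higher by FRISCR in live cells, while CDC5L, AQR and SRPK1 were 1.58-, 1.55- and 1.48-fold lower. SNRNP27, HNRNPH1 and LSM3 were 1.86-, 1.84- and 1.79-fold lower by FRISCR in fixed cells, with set 2 log2 folds of 0.62, -0.78 and 0.18.

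Several members have near-identical copies, and their counts are uncertain to that degree. GENCODE 29 lists 74 pseudogenes named after HNRNPA1, 20 after SNRPG, 18 after SNRPC and 9 each after HNRNPC and SNRPE. Of the members, only HNRNPA1 and SNRPD2 (2 pseudogenes) also had a pseudogene among the deposited gene rows. Whether the authors counted reads that map to several places is not stated. Other protein-coding genes overlap HNRNPL, SRSF1, SNRPB and SNRPD3 on the same strand in that annotation, and how the authors' counting divided such reads is not stated. Protein-coding genes on the opposite strand overlap HNRNPA2B1, HNRNPU, SRSF2, SRSF9, SNRPA, SNRPD2, SNRPD3, SNRPF, SF3A1 and SF3A2, and genes annotated as antisense overlap HNRNPD, HNRNPK, SF3B2, U2AF2 and PRPF8. Without strand information their reads cannot be told apart where they overlap.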

How the data were processed

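Single H1 cells were measured by RNA sequencing with Smart-Seq2 and Nextera XT, per the labels' protocols, and processed on GRCh37, which the submitters' processing notes also call hg19. Aligner, quantifier, annotation and use of strand were not given in the sources used here. The authors deposited estimated counts per gene, of which 40.3% of the nonzero values are not whole, and the authors deposited TPM values of the same 45 cells. Estimated counts were rounded to whole numbers. Groups follow the sample group label.

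With 1 sample per group, no test was made and no p-value is given. The cells of a group were summed and scaled to counts per 1000000 (CPM). Genes averaging 20 CPM or more over the 4 groups were compared, and a group or library set at 0 was set at a floor of 3 counts. A gene was taken as past a threshold when it differed 2-fold in the same direction in both library sets. Ratios carry exact 95% intervals from the binomial split of the summed counts (scipy), which, like the floor, cover counting error only. Detection was counted in cells thinned to 1000000 counts. Transcript length relative to the median gene was taken from the ratio of deposited counts to deposited TPM.

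The 3 highest and 3 lowest members of each comparison that lay on the same side of all genes in both library sets are named, with the highest and lowest of each family; 3 other splicing genes at each end are named likewise. Remaining members are named to account for all. The members and lists were chosen with earlier results of these data known. Alternatives were mean CPM or TPM over cells, scaling by edgeR's TMM or DESeq2's median of ratios, totals without abundant rows, filters of 5 CPM or none, a 1.5-fold threshold, 2-fold over all cells, folds relative to all genes, each library set alone, each cell left out in turn, and thinning to 250000 counts or a minimum of 5 counts. Scripts were tested on simulated data. The coding sequence of 1 further Sm gene is not reported here. Tools were R 4.3.3, edgeR 4.0.16 and DESeq2 1.42.0 (for scaling factors only), Python 3.11.15, pandas 2.3.3, numpy 2.4.6, scipy 1.17.1 and matplotlib 3.10.9.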

Additional observations from a re-analysis of the deposited data

Results flagged for a closer look

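In fixed Triton cells, 44 groups of values were examined, each member's log2(CPM + 1) and each family's share of counts. In 7 of them, all on the log2(CPM + 1) scale, a single cell, not always the same, stood far from the other 6. The rule marks about 1 in 20 groups by chance if values are normal and independent. These values include counts at or near 0 and share their cells, so the 7 of 44 cannot be weighed against that rate. Replicate 1 was low for HNRNPC (0.30), SRSF3 (1.11), SNRPA1 (0.76), SNRPC (0.30) and SNRPD1 (0.30). Replicate 2 was low for SNRPD3 (0). Replicate 3 was high for U2AF2 (3.38).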

How the results depend on the processing

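Family medians are given relative to all genes, on the log2 scale. For fixed over live cells by FRISCR, the hnRNP median, near 0, ranged from -0.059 to 0.054 without any 1 cell (0.01, 0.02, 0.01, 0.05 and 0.01 where its sign turned) and was 0.032 against genes of the same of 5 length bins, an alternative chosen after seeing the data. The SR median was -0.0020 in set 2. The snRNP median was 0.17 against its length bin. The SF3 median was -0.54 with no filter, -0.55 in set 2, -0.28 against its length bin and -0.55 to -0.36 without any 1 cell. The count of lower members was 2 at 1.5-fold (6.42% of all genes) and 0 to 1 without any 1 cell. For fixed over live cells by Triton, set 1 gave hnRNP 0.89 and SR 0.50, set 2 gave snRNP 2.61 and SF3 0.49, and the length bin gave snRNP 0.73. Lower members numbered 11 by TMM, 8 by median of ratios and 3 relative to all genes (32.1%, 30.0% and 22.3% of all genes). Higher members numbered 5 by TMM, 6 by median of ratios, 1 by TPM, 5 without abundant rows, 4 at 1.5-fold and 11 relative to all genes (9.62%, 11.6%, 1.19%, 7.46%, 5.88% and 20.5%). For FRISCR over Triton in live cells, the hnRNP median was 0.44 in set 1, and 1 member was higher at 1.5-fold (5.88% of all genes). For FRISCR over Triton in fixed cells, set 1 gave hnRNP -0.38 and SR -0.27, set 2 gave snRNP -2.09 and SF3 -0.92, and the length bin gave snRNP -0.47. The SF3 median ranged from -0.046 (without fixed Triton replicate 2) to 0.84 without any 1 cell. Lower members numbered 4 by median of ratios, 1 by TPM, 9 relative to all genes (9.86%, 1.13% and 18.8% of all genes) and 1 to 2 without any 1 cell. Higher members numbered 8 by TMM, 8 by median of ratios, 10 without abundant rows and 2 relative to all genes (30.6%, 29.4%, 35.0% and 21.2%). Folds of single members past 2-fold in both sets were also scaled otherwise, over the 4 comparisons. By more than the SD of the 2 sets, 18 moved by TMM and 22 by median of ratios. The others, 26 and 22, did not, and none changed sign. In fixed Triton cells a median of 32 members was detected at 250000 counts and 32 with at least 5 counts. The cause was not tested. No paired analysis was possible because the replicate numbers follow accession order only and no test was made. Few counts limit the precision of genes such as U2AF2, with 34 counts in the 7 fixed Triton cells, whose median total (4301153) was near that of fixed FRISCR cells (4452107).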
